A study of Homo sapiens with 18 samples.

Results

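The 9 genes described are HCLS1, PTPRC, CD68, LCP1, CORO1A, CD74, LAPTM5, VAV1 and SPI1, taken by name from the 23571 named genes of an RNA sequencing series in the human colon cancer cell line SW48, an established line from an adenocarcinoma. All 9 are best known from white blood cells. They were chosen by name with their measured FPKM in these libraries known, so their own levels are described here without p-values, and how many of them the fit over all genes called is given only beside the share of all genes called. Levels are in FPKM, a fragment count corrected for both transcript length (in kilobases) and library depth, so that genes of different length can be compared. The label of genes foreign to colon cells did not hold for CD68 and CORO1A, which were at 1 FPKM or more in all 18 libraries, while the others were under 1 FPKM in all 3 control siRNA libraries.

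White blood cells build their surface receptors, actin cortex and antigen-processing machinery from a set of proteins that epithelial cells mostly lack or replace with a paralog. PTPRC (CD45) is the receptor tyrosine phosphatase that licenses antigen receptor signalling, VAV1 is the exchange factor that passes that signal to small GTPases of the cytoskeleton, and HCLS1 (HS1) is the leukocyte relative of cortactin that links such signals to branched actin. SPI1 encodes PU.1, an ETS-family transcription factor of myeloid and B cells that is known to act on the promoters of many leukocyte genes. The enzymes targeted in the study act on chromatin: CHD4 is the remodelling ATPase of the NuRD co-repressor complex, DNMT1 copies DNA methylation after replication, and decitabine is a nucleoside analogue that traps DNA methyltransferases.

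There were 6 groups of 3 libraries, all from SW48 cells grown in L-15 medium with 10% serum. Cells given siRNA against DNMT1 (siDNMT1) on days 1, 3 and 5 then got either siRNA against CHD4 (siCHD4) or control siRNA on days 7 and 8, and RNA was collected on day 11. Cells given 50 nM decitabine on days 1, 2 and 3 got siCHD4 or control siRNA on days 1 and 2, and RNA was collected on day 5. Cells given no agent against DNA methylation got siCHD4 or control siRNA on days 1, 3 and 6, with RNA on day 8. The schedule is therefore shared within each siCHD4 and control pair, but between control siRNA plus siDNMT1 (or plus decitabine) and control siRNA alone the treatment and the schedule cannot be told apart. The same limit holds wherever siCHD4 plus siDNMT1 is set beside control siRNA alone, where both treatments and the schedule differ. The replicates carry the numbers 0, 1 and 2, and values of single libraries below follow that order. Whether separate cultures stand behind the 3 libraries of a group is not in the labels, so the spread that p-values measure may be technical.

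The siRNAs lowered their targets in the deposited values. CHD4 averaged 28.4 ± 1.12 FPKM in siCHD4 plus siDNMT1 and 68.2 ± 5.19 FPKM in control siRNA plus siDNMT1 (SD, n = 3 each), 31.3 ± 7.87 FPKM in siCHD4 and 62.8 ± 4.78 FPKM in control siRNA, and 54.9 ± 2.06 FPKM in siCHD4 plus decitabine and 76.2 ± 8.17 FPKM in control siRNA plus decitabine. The last pair did not pass the threshold (limma adjusted p = 0.0752), and among the siCHD4 groups CHD4 was highest with decitabine. DNMT1 averaged 12.1 FPKM in siCHD4 plus siDNMT1 and 12.3 FPKM in control siRNA plus siDNMT1, against 44.7 FPKM in control siRNA. Libraries held 11477 to 12502 genes at 1 FPKM or more. Read totals are not listed, but the step between low values gave the worth of 1 fragment, which in control siRNA plus decitabine replicate 0 was 4.11 times that in control siRNA replicate 0 and in the other libraries lay between -0.72 and 0.26 on the log2 scale. That library is thus the shallowest, and its low values are coarse.

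The starts of the genes are shown first. HCLS1, CD74, VAV1 and PTPRC were each highest in siCHD4 plus siDNMT1, whereas CORO1A, CD68, LAPTM5 and SPI1 were not. RefSeq promoter windows of 300 bases, from 250 before to 50 after the start of the gene, were found for 8 of the 9 genes (GRCh38.p14). Of these, 5 are printed 5′ to 3′ on the strand of the gene, with CpG dinucleotides, the substrate of DNMT1, in capitals. HCLS1 is shown for the widest range of levels, CD74, VAV1 and PTPRC as further genes highest in the same group (LCP1, the remaining such gene, was under 0.4 FPKM throughout), and CORO1A as the contrast. The windows lie at chr3:121660854-121661153 (minus strand, HCLS1), chr5:150412861-150413160 (minus, CD74), chr19:6772458-6772757 (plus, VAV1), chr1:198638790-198639089 (plus, PTPRC) and chr16:30183352-30183651 (plus, CORO1A).
HCLS1: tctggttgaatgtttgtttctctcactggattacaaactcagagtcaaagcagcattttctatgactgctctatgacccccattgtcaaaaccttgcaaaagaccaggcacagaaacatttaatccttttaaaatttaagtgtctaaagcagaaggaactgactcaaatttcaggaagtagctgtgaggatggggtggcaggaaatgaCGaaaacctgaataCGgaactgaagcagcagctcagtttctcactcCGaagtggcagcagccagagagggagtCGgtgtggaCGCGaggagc
CD74: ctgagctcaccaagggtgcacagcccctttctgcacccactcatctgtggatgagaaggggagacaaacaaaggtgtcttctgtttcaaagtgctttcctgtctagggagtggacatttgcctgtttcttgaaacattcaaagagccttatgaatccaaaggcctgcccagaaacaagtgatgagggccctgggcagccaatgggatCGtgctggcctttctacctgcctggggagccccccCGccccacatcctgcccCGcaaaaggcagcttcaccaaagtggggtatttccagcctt
VAV1: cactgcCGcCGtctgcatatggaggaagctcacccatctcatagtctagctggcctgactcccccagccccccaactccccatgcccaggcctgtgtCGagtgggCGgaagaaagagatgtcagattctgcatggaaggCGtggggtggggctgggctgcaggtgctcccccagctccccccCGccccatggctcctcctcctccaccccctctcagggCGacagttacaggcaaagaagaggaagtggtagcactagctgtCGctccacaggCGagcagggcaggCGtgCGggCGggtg
PTPRC: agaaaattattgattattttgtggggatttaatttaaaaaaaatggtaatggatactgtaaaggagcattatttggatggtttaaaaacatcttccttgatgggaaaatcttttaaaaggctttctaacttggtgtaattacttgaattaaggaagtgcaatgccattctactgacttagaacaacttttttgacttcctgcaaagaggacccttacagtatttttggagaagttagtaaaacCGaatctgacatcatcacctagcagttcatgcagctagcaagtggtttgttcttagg
CORO1A: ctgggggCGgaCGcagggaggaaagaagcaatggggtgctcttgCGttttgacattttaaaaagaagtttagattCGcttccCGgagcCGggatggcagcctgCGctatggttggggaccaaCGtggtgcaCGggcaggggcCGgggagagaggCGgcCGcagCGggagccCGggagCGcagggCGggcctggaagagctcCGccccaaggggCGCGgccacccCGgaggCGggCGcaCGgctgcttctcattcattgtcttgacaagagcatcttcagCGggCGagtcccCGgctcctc

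The PTPRC window held 1 CpG, CD74 held 3, HCLS1 held 6, VAV1 held 12 and CORO1A held 26. The windows not printed held 2 (CD68), 2 (LCP1) and 5 (LAPTM5). The median of the 8 genes was 4 CpGs, against a median of 14 over 27305 RefSeq promoter windows of the same length (quartiles 3 and 28). The other blood-cell genes listed below had a median of 6 over 181 windows, and the paralogs of the 9 genes a median of 31 over 12 windows. A low CpG count was thus shared by most of the 8 genes and by other blood-cell genes. VAV1, with 12, lay near the median of all promoters, and CORO1A lay in their upper part. CD68 and LAPTM5, with 2 and 5 CpGs, were, like CORO1A, not highest in siCHD4 plus siDNMT1. DNA methylation itself was not measured in these libraries, and the part of CpG content in the levels was not tested.

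**Figure D1:**
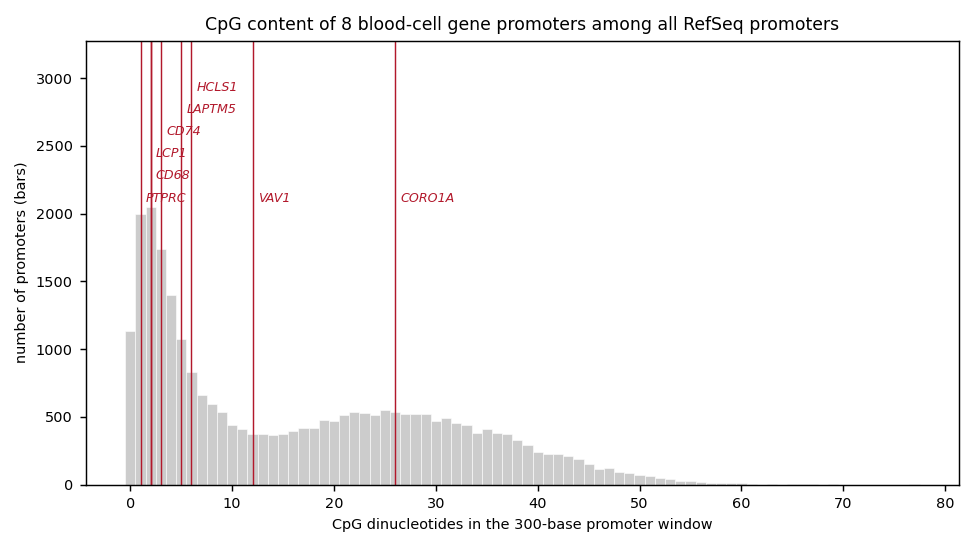
Bars give the number of RefSeq promoter windows (y axis) at each count of CpG dinucleotides per 300 bases (x axis), and vertical lines mark 8 of the blood-cell genes. PTPRC, CD68, LCP1, CD74, LAPTM5 and HCLS1 lie between 1 and 6 CpGs, VAV1 at 12 and CORO1A at 26.

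The letters GGAAGT, an extended form of the GGAA core that ETS-family factors such as PU.1 bind, were searched on both strands. They stood in 6 of the 8 windows (75%), against 23.2% of all promoter windows, 39.2% of those of the other blood-cell genes and 25% of those of the paralogs. In HCLS1 the first letter lay at -77 from the start, in CD68 at -65, in LAPTM5 at -70 and in VAV1 at -9. PTPRC had the letters at -99 and, on the opposite strand, at -57, and LCP1 had them at -191 and, on the opposite strand, at -46. CD74 and CORO1A had no match to GGAAGT in this window. The shorter GGAA stood in 100% of the 8 windows and 95.5% of all promoter windows. The longer GAGGAAGT stood in 2 of the 8 (25%), in 2.54% of all windows and in 11.6% of those of the other blood-cell genes. A match is a string of letters and not a shown binding site.

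Across the groups, the summed level of the 9 genes was highest in siCHD4 plus siDNMT1, where it lay between 30.1 and 31.6 FPKM in the 3 libraries, against 8.41 to 10.6 FPKM in control siRNA plus siDNMT1. HCLS1 alone averaged 15.2 and 0.866 FPKM in these groups, while CORO1A averaged 3.14 and 5.35 FPKM, so the sum is not a joint rise of all 9. The sum was 18.5 to 22.0 FPKM in siCHD4 plus decitabine and 12.4 to 18.5 FPKM in control siRNA plus decitabine. Without an agent against DNA methylation it was 5.69 to 8.04 FPKM in siCHD4 and 4.85 to 5.80 FPKM in control siRNA. In bulk RNA, a few cells with much transcript and many cells with little cannot be told apart.

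**Figure D2:**
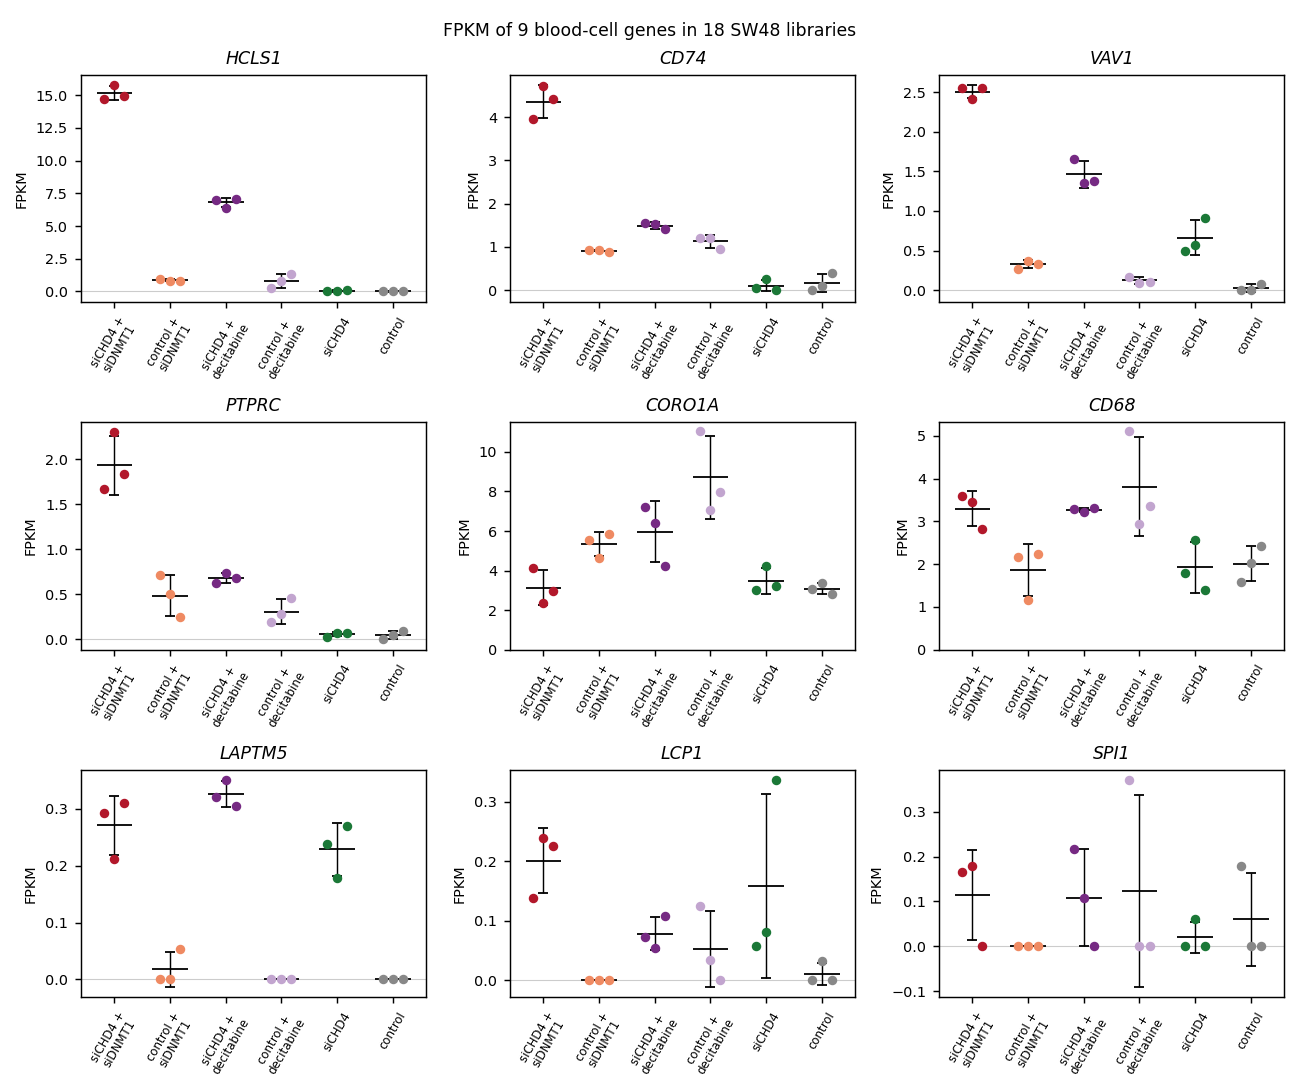
FPKM (y axis, linear) of each gene in the 18 libraries by group (x axis), with points for libraries, long lines for group means and whiskers for SD (n = 3). HCLS1, CD74, VAV1 and PTPRC are highest in siCHD4 plus siDNMT1, CORO1A and CD68 are present in all groups, and LAPTM5, LCP1 and SPI1 stay under 0.4 FPKM.

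The comparisons were fitted with limma on log2(FPKM + 1) over 12809 genes that reached 1 FPKM in at least 3 libraries, and a gene was called at an adjusted p below 0.05. HCLS1, PTPRC, CD68, CORO1A, CD74 and VAV1 entered this fit and LAPTM5, LCP1 and SPI1 did not. PTPRC entered only through its 3 siCHD4 plus siDNMT1 libraries, and VAV1 only through those and the 3 of siCHD4 plus decitabine, so both had to differ. HCLS1 and CD74 also needed siCHD4 libraries to enter, since outside the siCHD4 groups they reached 1 FPKM in fewer than the 3 needed. With siDNMT1, siCHD4 against control gave 5 of the 6 as higher and CORO1A as lower, where 24.8% of all tested genes were called higher and 24.6% lower. With decitabine 2 were called higher (HCLS1 and VAV1; 3.26% of all genes higher, 1.31% lower), and with siCHD4 alone 1 (VAV1; 9.58% higher, 9.71% lower). Control siRNA plus siDNMT1 against control siRNA gave 5 as higher (all but CD68; 6.94% higher, 4.4% lower), and control siRNA plus decitabine against control siRNA gave 4 (CORO1A, CD68, CD74 and HCLS1; 9.6% higher, 8.63% lower). Since the genes were picked for such values, nothing is read from these counts.

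**Figure D3:**
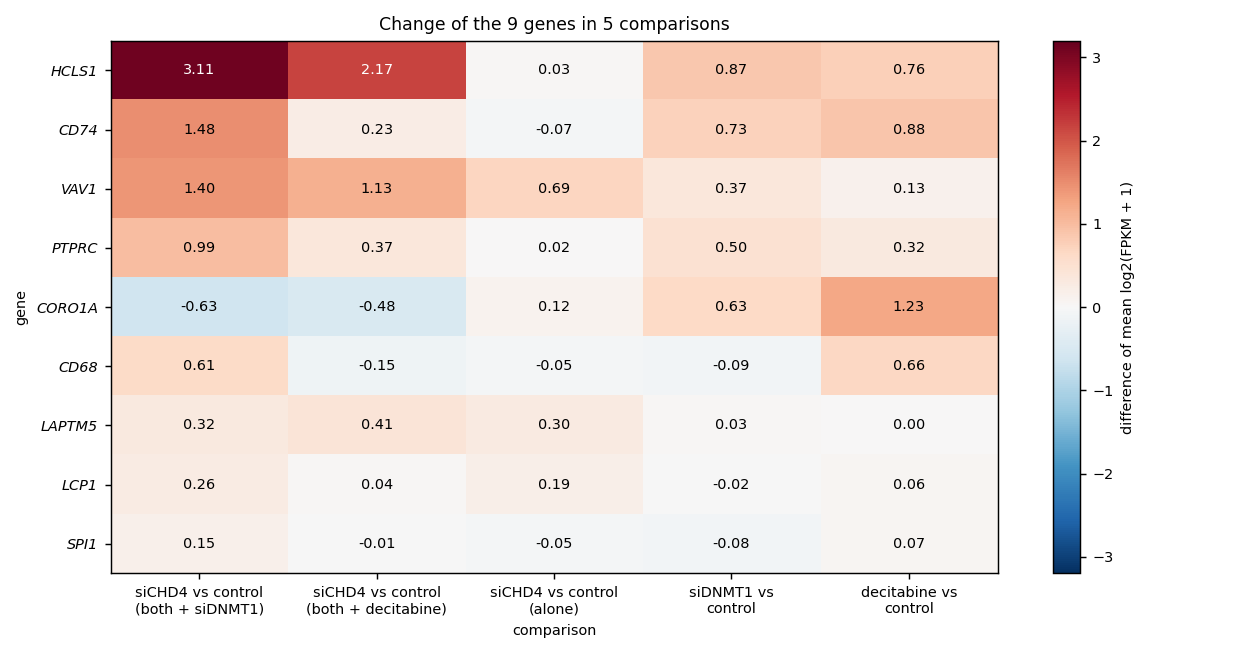
Difference of group means of log2(FPKM + 1) for each gene (rows) in 5 comparisons (columns), red for higher in the first group of a comparison and blue for lower. HCLS1 has the largest value, 3.11, for siCHD4 against control when both got siDNMT1, and CORO1A is below 0 in both comparisons of siCHD4 with control on top of an agent against DNA methylation.

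HCLS1 (chromosome 3, 121350246 to 121379774, minus strand, GRCh37, a protein-coding gene) is the leukocyte paralog of cortactin. It was listed at 14.7, 15.8 and 15.0 FPKM in siCHD4 plus siDNMT1, against 0.958, 0.806 and 0.835 FPKM in control siRNA plus siDNMT1. In siCHD4 plus decitabine it was at 7.00, 6.38 and 7.04 FPKM, against 0.244, 0.796 and 1.31 FPKM in control siRNA plus decitabine. Neither pair overlapped, and the siCHD4 plus siDNMT1 libraries lay above all others. In siCHD4 alone it was listed at 0, 0 and 0.120 FPKM, and in control siRNA at 0, 0.0633 and 0 FPKM, so these groups overlapped at the bottom of the scale. The ratio of group means was 17.5 with siDNMT1 (log2 change of FPKM + 1 of 3.11) and 8.69 with decitabine (2.17), and the log2 change was 0.03 for siCHD4 alone. For siDNMT1 or decitabine with control siRNA, against control siRNA alone, the log2 changes were 0.87 and 0.76.

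VAV1 (chromosome 19, 6772719 to 6857377, plus strand, GRCh37), the haematopoietic member of the VAV exchange factors, differed from HCLS1 in that it was also higher with siCHD4 alone. It was at 2.55, 2.41 and 2.56 FPKM in siCHD4 plus siDNMT1, against 0.273, 0.373 and 0.331 FPKM in control siRNA plus siDNMT1. It was at 1.66, 1.35 and 1.38 FPKM in siCHD4 plus decitabine, against 0.169, 0.0918 and 0.109 FPKM in control siRNA plus decitabine. In siCHD4 it was at 0.497, 0.577 and 0.917 FPKM, and in control siRNA it was listed at 0, 0 and 0.0817 FPKM. The groups of all 3 pairs were apart, and siCHD4 replicate 2 was the highest of the siCHD4 libraries. The ratio of means was 7.70 with siDNMT1 and 11.9 with decitabine, and the log2 changes were 1.40, 1.13 and, for siCHD4 alone, 0.69.

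PTPRC (chromosome 1, 198607587 to 198726605, plus strand, GRCh37) encodes the pan-leukocyte surface phosphatase CD45. It was at 1.67, 2.30 and 1.83 FPKM in siCHD4 plus siDNMT1, against 0.711, 0.501 and 0.247 FPKM in control siRNA plus siDNMT1. In siCHD4 plus decitabine it was at 0.630, 0.737 and 0.684 FPKM, against 0.188, 0.281 and 0.460 FPKM in control siRNA plus decitabine. Both pairs were apart. In siCHD4 it was at 0.0291, 0.0763 and 0.0695 FPKM, and in control siRNA at 0, 0.0487 and 0.0908 FPKM, and these overlapped. The ratio of means was 3.98 with siDNMT1 and 2.21 with decitabine, with log2 changes of 0.99 and 0.37, and the log2 change for siCHD4 alone was 0.02.

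CD74 (chromosome 5, 149781200 to 149792532, minus strand, GRCh37) encodes the invariant chain, which holds MHC class II molecules until they reach the compartment where peptide is loaded. It was at 3.94, 4.72 and 4.41 FPKM in siCHD4 plus siDNMT1, against 0.920, 0.929 and 0.894 FPKM in control siRNA plus siDNMT1. In siCHD4 plus decitabine it was at 1.55, 1.53 and 1.41 FPKM, against 1.22, 1.21 and 0.960 FPKM in control siRNA plus decitabine. The decitabine groups were apart by less than the range within the control group. Given siCHD4 alone it was at 0.0629, 0.264 and 0 FPKM, and in control siRNA at 0, 0.105 and 0.393 FPKM, so these overlapped. The ratio of means was 4.77 with siDNMT1 and 1.32 with decitabine, with log2 changes of 1.48 and 0.23. The change for siCHD4 alone was -0.07.

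The class II genes that work with CD74 were mostly near 0. CIITA, the master co-activator of class II genes and of CD74 in antigen-presenting cells, was at most 0.102 FPKM in any of the 18 libraries and listed at 0 in 3. HLA-DRA was at most 0.715 FPKM, HLA-DRB1 at most 0.447 FPKM and HLA-DPA1 at most 0.219 FPKM. HLA-DMA, the peptide editor, averaged 1.37 FPKM in siCHD4 plus siDNMT1 and 0.450 FPKM in control siRNA, groups that also differ in schedule. Of the 14 class II genes listed, 3 were tested and 0 were called in siCHD4 plus siDNMT1 against control siRNA plus siDNMT1. Without the filter on low values limma called 3 of the 13 not at 0 throughout as higher (23.1%, beside 23.4% of all genes).

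CORO1A (chromosome 16, 30194148 to 30200397, plus strand, GRCh37), coronin of the leukocyte actin cortex, went the other way. It was at 4.12, 2.34 and 2.96 FPKM in siCHD4 plus siDNMT1, against 5.57, 4.65 and 5.82 FPKM in control siRNA plus siDNMT1, and these were apart. It was at 7.24, 6.40 and 4.25 FPKM in siCHD4 plus decitabine, against 11.1, 7.08 and 7.99 FPKM in control siRNA plus decitabine, which overlapped. Without such an agent it was at 3.00, 4.23 and 3.21 FPKM in siCHD4, and at 3.09, 3.38 and 2.81 FPKM in control siRNA, again overlapping. The log2 changes for siCHD4 against control were -0.63 with siDNMT1, -0.48 with decitabine and 0.12 alone. CORO1A was instead higher in control siRNA plus siDNMT1 than in control siRNA alone (ratio of means 1.73, log2 change 0.63), and in control siRNA plus decitabine likewise (2.82, log2 change 1.23). The highest value, 11.1 FPKM, came from the shallow control siRNA plus decitabine replicate 0, but replicates 1 and 2 of that group were also above all 3 control siRNA libraries. An antisense RNA, CORO1A-AS1, overlaps the gene, and how the authors' counting treated strand is not given in the sources used here.

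LCP1 (chromosome 13, 46700055 to 46786006, minus strand, GRCh37) encodes L-plastin, the leukocyte actin-bundling protein. It was at 0.138, 0.240 and 0.225 FPKM in siCHD4 plus siDNMT1 and listed at 0 in all 3 control siRNA plus siDNMT1 libraries. It was at 0.0728, 0.0542 and 0.108 FPKM in siCHD4 plus decitabine, against 0.124, 0.0338 and 0 FPKM in control siRNA plus decitabine, and these overlapped. In siCHD4 it was at 0.0577, 0.0808 and 0.337 FPKM, and in control siRNA at 0, 0.0322 and 0 FPKM. L-plastin is also known to appear in carcinomas, but here LCP1 stayed under 0.4 FPKM in all 18 libraries, and siCHD4 replicate 2 held its highest value. The antisense RNA CPB2-AS1 overlaps it.

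CD68 and LAPTM5 are proteins of the late endosome and lysosome, CD68 being the common histological marker of macrophages. CD68 (chromosome 17, 7482809 to 7485429, plus strand, GRCh37) was at 3.60, 3.46 and 2.83 FPKM in siCHD4 plus siDNMT1, against 2.17, 1.16 and 2.25 FPKM in control siRNA plus siDNMT1, and these were apart. It was at 3.28, 3.22 and 3.31 FPKM in siCHD4 plus decitabine, against 5.13, 2.94 and 3.37 FPKM in control siRNA plus decitabine, and at 1.80, 2.57 and 1.40 FPKM in siCHD4, against 1.59, 2.03 and 2.42 FPKM in control siRNA. Both of those pairs overlapped. The ratio of means was 1.78 with siDNMT1 (log2 change 0.61), and the log2 changes were -0.15 with decitabine and -0.05 alone. CD68 in control siRNA plus decitabine was above control siRNA without overlap (log2 change 0.66), and its level was again highest in the shallow replicate 0.

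LAPTM5 (chromosome 1, 31205316 to 31230621, minus strand, GRCh37), which in lymphocytes steers antigen receptors to lysosomes, was low but higher with siCHD4 in all 3 settings. It was at 0.292, 0.212 and 0.309 FPKM in siCHD4 plus siDNMT1, against 0, 0 and 0.0536 FPKM in control siRNA plus siDNMT1. It was at 0.321, 0.350 and 0.304 FPKM in siCHD4 plus decitabine and at 0.238, 0.178 and 0.270 FPKM in siCHD4, and it was listed at 0 in all 6 libraries of control siRNA plus decitabine and control siRNA. All 9 siCHD4 libraries thus lay above all 9 control libraries, and the 3 siCHD4 groups lay close together, with means of 0.271, 0.325 and 0.229 FPKM. VAV1 was the other gene whose 9 siCHD4 libraries all lay above the 9 control libraries. LAPTM5 was at a level where a few fragments make the value.

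SPI1 (chromosome 11, 47376411 to 47400098, minus strand, GRCh37) was listed at 0 in 11 of the 18 libraries and was at most 0.371 FPKM, in control siRNA plus decitabine replicate 0. It was at 0.165, 0.179 and 0 FPKM in siCHD4 plus siDNMT1 and listed at 0 in all 3 control siRNA plus siDNMT1 libraries. It was at 0.218, 0.108 and 0 FPKM in siCHD4 plus decitabine, against 0.371, 0 and 0 FPKM in control siRNA plus decitabine. With siCHD4 alone it was at 0, 0.0604 and 0 FPKM, and in control siRNA at 0.180, 0 and 0 FPKM. Every pair of groups overlapped, and no difference in SPI1 was detectable at this depth.

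In all, siCHD4 against control left 7 of the 9 genes higher without overlap with siDNMT1, with CORO1A lower, where 33.7% of the tested genes were higher without overlap and 36.4% lower. With decitabine 5 were higher without overlap (HCLS1, PTPRC, CD74, LAPTM5 and VAV1; 13.8% of the tested genes higher, 13.2% lower), and alone 3 were (LAPTM5, LCP1 and VAV1; 16.6% higher, 16.9% lower). Control siRNA plus siDNMT1 was above control siRNA without overlap in 5 genes (19.4% of the tested genes higher, 22.2% lower), and control siRNA plus decitabine in 6 (16.9% higher, 17.7% lower). These comparisons share the control siRNA libraries with that of siCHD4 alone. All these shares cover only genes past the filter, which LAPTM5, LCP1 and SPI1 did not pass. HCLS1, CD74, PTPRC and VAV1 needed siCHD4 libraries to pass it. The counts and shares are therefore of unlike sets, and nothing is read from them. The median log2 change over all 9 genes was 0.61 with siDNMT1, 0.23 with decitabine and 0.03 alone, beside medians of all tested genes of -0.01, 0.01 and 0.00.

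The siCHD4 difference was also set against itself with and without siDNMT1. Subtracting the log2 change alone from that with siDNMT1 gave 3.09 for HCLS1, 1.55 for CD74, 0.97 for PTPRC, 0.72 for VAV1, 0.66 for CD68 and -0.76 for CORO1A. It gave 0.20 for SPI1, 0.07 for LCP1 and 0.02 for LAPTM5. HCLS1, CD74 and PTPRC thus stood near 0 in siCHD4 alone and above 1 FPKM with siCHD4 plus siDNMT1, whereas LAPTM5 and LCP1 gave about the same difference either way on this scale. With a pseudocount of 0.1 in place of 1 the value for VAV1 was 0.01, with a siCHD4 difference of 2.62 with siDNMT1 and 2.61 alone, while HCLS1 had 3.84, CD74 2.39, PTPRC 1.72 and LCP1 0.49.

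HCLS1, CD68, LCP1, CORO1A, LAPTM5 and VAV1 have paralogs that colon cells use, and most of those were abundant in every group. In siCHD4 plus siDNMT1 and control siRNA, CTTN (cortactin), the paralog of HCLS1, averaged 115 and 98.2 FPKM, LAMP1, of the CD68 family, 96.3 and 104 FPKM, CORO1C 61.7 and 68.7 FPKM, LAPTM4A 60.4 and 54.5 FPKM, and VAV2 21.9 and 18.2 FPKM. HCLS1 at its highest was thus still well under CTTN, and VAV1 under VAV2. VAV3 and CORO2B were near 0 throughout. Of 16 paralogs 13 were tested. In siCHD4 plus siDNMT1 against control siRNA plus siDNMT1, 3 rose and 2 fell (23.1% and 15.4% of those tested, beside 24.8% and 24.6% of all tested genes), with a median log2 change of 0.19. CTTN rose by 0.27 (SE 0.06, limma adjusted p = 0.00333), CORO2A by 0.43 (SE 0.09, limma adjusted p = 0.00164) and CORO7 by 0.34 (SE 0.13, limma adjusted p = 0.0424).

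The plastins moved against LCP1. PLS1 (I-plastin, of the intestinal brush border) averaged 12.8 ± 0.532 FPKM in siCHD4 plus siDNMT1 and 26.3 ± 1.40 FPKM in control siRNA plus siDNMT1 (SD, n = 3 each; log2 change -0.98, SE 0.14, limma adjusted p = 7.91e-05). It averaged 14.9 ± 0.801 FPKM in siCHD4 and 28.3 ± 1.48 FPKM in control siRNA (log2 change -0.88, SE 0.14, limma adjusted p = 0.000787). PLS3 fell in the same comparisons, by 0.34 (limma adjusted p = 0.0263) and by 0.53 (limma adjusted p = 0.00673) on the log2 scale. With decitabine 0 of the 13 paralogs were called for siCHD4 against control by limma.

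**Figure D4:**
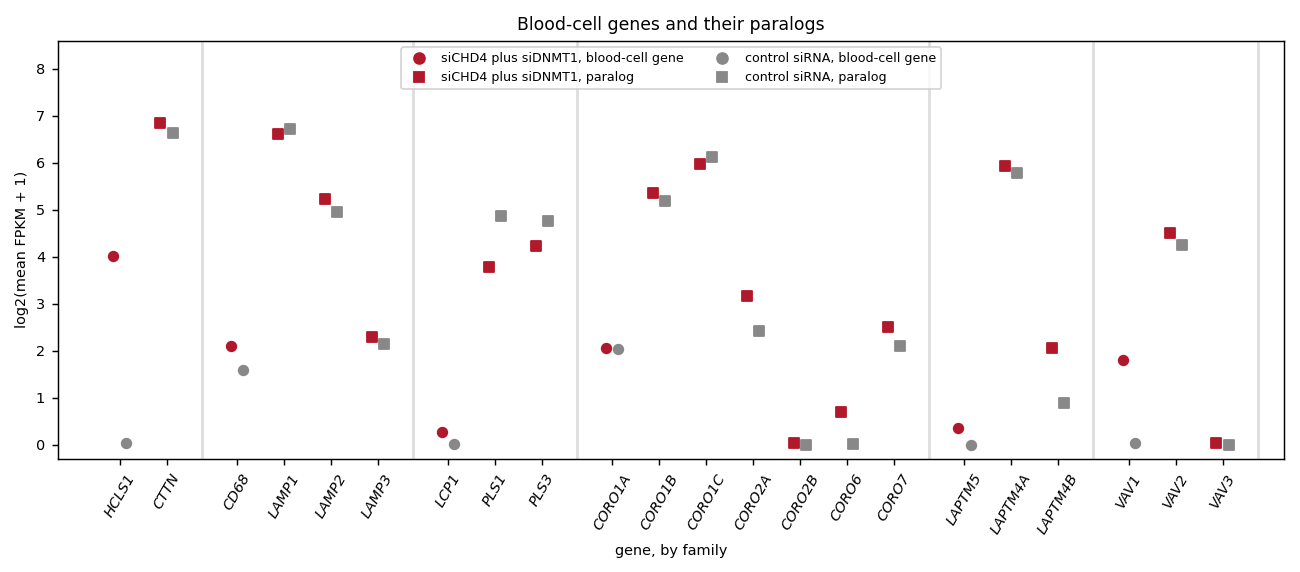
Log2 of mean FPKM + 1 (y axis) of 6 blood-cell genes (circles) and their paralogs (squares), family by family (x axis), in siCHD4 plus siDNMT1 (red) and control siRNA (grey), means of 3 libraries. HCLS1 and VAV1 are far apart between the groups, while CTTN and VAV2 lie high and close together in both.

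The 9 genes were set beside 256 other blood-cell genes in 8 lists (transcription factors, receptor signalling, surface and cytoskeleton, myeloid, T and NK, B cell, class II, and megakaryocyte and erythroid genes). Of these, 203 were under 1 FPKM in all 18 libraries, 42 of them at 0 throughout, and 26 were at 1 FPKM or more in all 3 control siRNA libraries. With siDNMT1, siCHD4 against control gave 19 of the 45 tested as higher and 4 as lower (42.2% and 8.89%), beside 24.8% and 24.6% of all tested genes. Under quantile normalization the split was 17 higher and 11 lower. The median log2 change of the 45 was 0.26. Without the filter, which some of the 45 passed only where they were high, 63 of 214 were called higher (29.4%) and 4 lower (1.87%), beside 23.4% and 15.4% of all genes. With decitabine 4 of the 45 were called higher and 0 lower (8.89% higher, beside 3.26%), and for siCHD4 alone 9 higher and 3 lower (20.0% and 6.67%, beside 9.58% and 9.71%). For siCHD4 alone quantile normalization gave 7 higher and 4 lower. Without the filter the shares called higher were 3.74% with decitabine, beside 3.39% of all genes, and 6.54% alone, beside 5.91%. Control siRNA plus siDNMT1 against control siRNA gave 6 higher and 4 lower of the 45 (13.3% and 8.89%, beside 6.94% and 4.4%), and without the filter 3.74% higher, beside 4.98% of all genes. The 4 lower calls came down to 1 without any 1 library of either group other than control siRNA replicate 2. Control siRNA plus decitabine gave 6 higher and 3 lower (13.3% and 6.67%, beside 9.6% and 8.63%), and without the filter 5.14% higher, beside 6.32%. The difference between the siCHD4 effects with siDNMT1 and alone was called higher in 5 of the 45 and lower in 0 (11.1% higher, beside 2.83% higher and 1.29% lower of all tested genes), and without the filter in 7.01%, beside 4.34% of all genes.

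**Figure D5:**
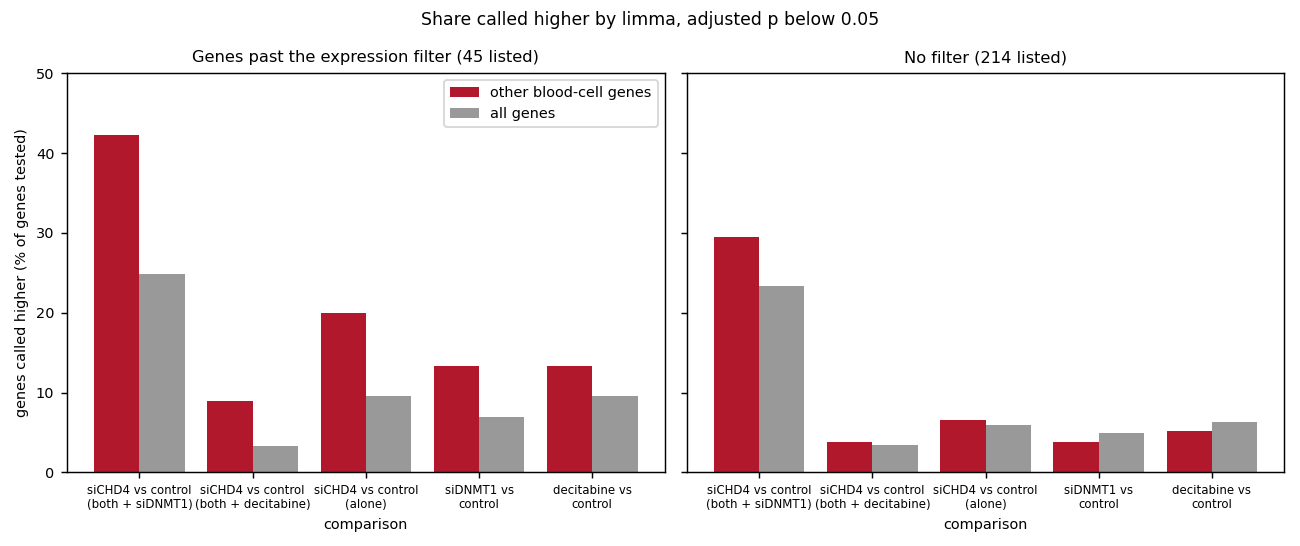
Share of genes called higher by limma (y axis, percent of those tested) among other blood-cell genes (red) and all genes (grey) in 5 comparisons (x axis), with the filter on low values (left) and without it (right). For siCHD4 plus siDNMT1 against control siRNA plus siDNMT1 the shares are 42.2% and 24.8% with the filter, and 29.4% and 23.4% without it.

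By list, siCHD4 plus siDNMT1 was compared with control siRNA plus siDNMT1. Of 18 tested receptor signalling genes 7 rose and 3 fell (38.9% and 16.7%, beside 24.8% and 24.6% of all tested genes). Without the filter 23.4% of all genes were called higher. Beside this stood 37.5% of receptor signalling, 34.5% of T and NK, and 32.3% of surface and cytoskeleton genes. The shares were 27.8% for B cell, 25.0% for myeloid, 24.1% for transcription factor, and 21.4% for megakaryocyte and erythroid genes. RAC2, the haematopoietic Rac GTPase that VAV1 activates, was at 5.26, 3.41 and 3.63 FPKM in siCHD4 plus siDNMT1, against 0.0816, 0.0898 and 0.0864 FPKM in control siRNA plus siDNMT1 (log2 change 2.21, SE 0.20, limma adjusted p = 1.11e-06). It also rose in siCHD4 against control siRNA, where it was at 0.602, 0.747 and 1.74 FPKM against a group listed at 0 (difference of log2(FPKM + 1) of 0.98, SE 0.20, limma adjusted p = 0.00414, from 0.000186 to 0.0571 over the alternatives). RAC2 thus followed VAV1, with siCHD4 libraries above their controls in all 3 settings. ARHGDIB, a leukocyte inhibitor of small GTPases, rose by 1.20 (limma adjusted p = 0.00539) and RASSF5, a Ras effector in lymphocyte adhesion, by 1.08 (limma adjusted p = 1.62e-07) on the log2 scale. PIK3CD, a leukocyte phosphoinositide kinase subunit, rose by 0.77 (limma adjusted p = 0.000233) and INPP5D, the phosphatase that acts against such kinases, by 0.63 (limma adjusted p = 0.000812). PRKCQ, a protein kinase C of T cells, fell by 0.98 (limma adjusted p = 8.53e-05) and LYN, a Src-family kinase, fell by 0.30 (limma adjusted p = 0.0293).

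Among 5 tested surface and cytoskeleton genes 3 rose and 0 fell (60% and 0%, beside 24.8% and 24.6% of all tested genes). All 5 were at 1 FPKM or more in every siCHD4 plus siDNMT1 library, and 3 were so in control siRNA plus siDNMT1. Without the filter the share called higher was 32.3%, beside 23.4% of all genes. PTPN7, a leukocyte tyrosine phosphatase, was at 3.79, 3.64 and 3.43 FPKM in siCHD4 plus siDNMT1, against 0.189, 0.208 and 0.322 FPKM in control siRNA plus siDNMT1 (log2 change 1.90, SE 0.11, limma adjusted p = 1.17e-08). Its level was 0.0761, 0 and 0.0808 FPKM in siCHD4, and 0, 0 and 0.0396 FPKM in control siRNA. As for HCLS1, the siCHD4 plus decitabine libraries came second, with a mean of 2.17 FPKM. CD52, a small glycosylphosphatidylinositol-anchored lymphocyte antigen, rose by 0.78 (limma adjusted p = 0.0180) and FMNL1, a leukocyte formin, by 0.73 (limma adjusted p = 0.000370).

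In the T and NK list 2 of 38 genes were tested, and both rose, beside 24.8% of all tested genes. PRF1 (perforin) averaged 27.0 ± 0.416 FPKM in siCHD4 plus siDNMT1 and 13.0 ± 0.552 FPKM in control siRNA plus siDNMT1, against 0.880 ± 0.0797 FPKM in control siRNA (SD, n = 3 each). Its log2 change was 1.00 for siCHD4 with siDNMT1 (SE 0.23, limma adjusted p = 0.00263) and 2.90 for siDNMT1 with control siRNA against control siRNA (SE 0.23, limma adjusted p = 4.21e-07). IL2RG, the common cytokine receptor chain, was at 1.04, 1.14 and 1.49 FPKM in siCHD4 plus siDNMT1 and listed at 0 in all 9 control libraries (difference of log2(FPKM + 1) of 1.15, SE 0.11, limma adjusted p = 1.09e-06). IL2RG passed the filter only through its siCHD4 plus siDNMT1 libraries, and PTPN7 and RAC2 only through siCHD4 libraries, so these had to differ. Their calls in this comparison were kept without the filter. In the B cell list 2 of 3 tested genes rose (66.7%, beside 24.8% of all tested genes), among them TNFRSF13C (the BAFF receptor) by 1.04 (limma adjusted p = 0.000267). All 3 were at 1 FPKM or more in every siCHD4 plus siDNMT1 library, and 0 were so in control siRNA plus siDNMT1. The filter thus favoured B cell genes high in the former. Without it the share called higher was 27.8%, beside 23.4% of all genes.

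Of 5 tested myeloid genes 2 rose and 0 fell (40% and 0%, beside 24.8% and 24.6% of all tested genes). All 5 were at 1 FPKM or more in every siCHD4 plus siDNMT1 library, and 2 were so in control siRNA plus siDNMT1. Without the filter the share called higher was 25.0%, beside 23.4% of all genes. MPO (myeloperoxidase) rose by 0.89 (limma adjusted p = 0.00363) and CYBB by 0.26 (limma adjusted p = 0.0307), and CYBB turned to -0.0720 under quantile normalization. Of 7 tested transcription factors TCF7 rose by 0.82 (limma adjusted p = 0.00155) and BCL11A by 0.75 (limma adjusted p = 0.00148), while MYB fell by 1.20 (limma adjusted p = 8.86e-05). The shares were 28.6% higher and 14.3% lower, beside 24.8% and 24.6% of all tested genes. TCF7 and MYB are also used by intestinal epithelium. EPOR, the erythropoietin receptor, rose by 0.30 (limma adjusted p = 0.0304), and turned to -0.0315 under quantile normalization. Of the calls named in this comparison, CD52, CYBB, EPOR, LYN, CORO7 and PLS3 were lost under some of the 12 alternatives, with limma adjusted p-values up to 0.218, 0.581, 0.802, 0.0914, 0.425 and 0.103. Of the factors that define blood lineages, IKZF1 was at most 0.0380 FPKM and RUNX1 at most 0.862 FPKM in the 18 libraries. RUNX1 averaged 0.678 FPKM in siCHD4 plus siDNMT1 and 0.179 FPKM in control siRNA. Without the filter 7 of the 29 transcription factors not at 0 throughout were called higher in this comparison (24.1%, beside 23.4% of all genes).

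The defining blood-cell markers listed next were picked after their values were seen, and all stayed under 1 FPKM. CD3D and LCP2 were listed at 0 in all 18 libraries. CD3E was at most 0.0927 FPKM, MS4A1 at most 0.0387 FPKM, ITGAM at most 0.0484 FPKM and CD53 at most 0.145 FPKM. CD14 was at most 0.432 FPKM, ITGB2 at most 0.578 FPKM, CSF1R at most 0.522 FPKM and CD79A at most 0.726 FPKM. CSF1R averaged 0.370 FPKM in siCHD4 plus siDNMT1 and 0.0875 FPKM in control siRNA. CD14 (0.198 and 0 FPKM) and ITGB2 (0.151 and 0 FPKM) were also higher in the former, and TYROBP (0 and 0.112 FPKM) was lower. PRF1 and MPO, which also mark blood lineages, were called higher, as given above. The summed level of the 38 T and NK genes, most of it PRF1, was 34.0 to 35.7 FPKM in siCHD4 plus siDNMT1 and 15.2 to 16.6 FPKM in control siRNA plus siDNMT1, and that of the 20 B cell genes was 7.25 to 8.55 FPKM and 2.54 to 2.94 FPKM.

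Markers of other cell types also differed between groups. The summed level of 14 colon epithelium markers was 1088 to 1128 FPKM in siCHD4 plus siDNMT1 and 1813 to 1893 FPKM in control siRNA plus siDNMT1. It was also lower with siCHD4 alone, at 1223 to 1391 FPKM, against 2033 to 2147 FPKM in control siRNA. With siDNMT1, 9 of the 12 tested colon genes rose (75.0%, beside 24.8% of all tested genes) while KRT8 and KRT18 fell. The summed level of 10 fibroblast markers was 14.2 to 16.0 FPKM in siCHD4 plus siDNMT1 and 3.99 to 4.11 FPKM in control siRNA plus siDNMT1, and 6.79 to 7.70 FPKM in siCHD4 plus decitabine and 0.624 to 3.90 FPKM in control siRNA plus decitabine. With siDNMT1, 3 of 3 tested fibroblast genes were called higher, beside 24.8% of all tested genes, and 2 of the 10 were at 0 in siCHD4 plus siDNMT1. All 3 were at 1 FPKM or more in every siCHD4 plus siDNMT1 library, and 1 was so in control siRNA plus siDNMT1. The filter thus favoured fibroblast genes high in the former. Without it 5 of the 8 not at 0 throughout were called higher (62.5%, beside 23.4% of all genes). The sum of 10 endothelial markers was 1.93 to 2.06 FPKM in siCHD4 plus siDNMT1 and 0.640 to 1.07 FPKM in control siRNA plus siDNMT1, with 0 tested. With siCHD4 alone it was 0.801 to 1.13 FPKM, against 0.842 to 1.37 FPKM in control siRNA. The fibroblast sum was 0.414 to 3.80 FPKM in siCHD4 and 0.121 to 0.490 FPKM in control siRNA. The part of these markers in the levels of the 9 genes was not tested, nor was that of the T, NK and B cell genes.

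The genes whose levels over the 18 libraries were most like the mean profile of the 6 tested genes were SSX1 (Pearson r = 0.976), SOHLH1 (0.970), COL6A2 (0.968), MRC2 (0.968) and ACP5 (0.967). LOC100506305, SV2A, NGFRAP1, JSRP1 and DCAF4L1 followed with r between 0.964 and 0.966. The measure describes likeness among libraries that share treatments, and it carries no test. SSX1, a cancer-testis gene, averaged 18.4 FPKM in siCHD4 plus siDNMT1, 2.22 FPKM in control siRNA plus siDNMT1, 9.39 FPKM in siCHD4 plus decitabine and 3.71 FPKM in control siRNA plus decitabine. It averaged 0.374 FPKM in siCHD4 and was listed at 0 in the control siRNA libraries. SOHLH1, a germ cell transcription factor, averaged 25.6 FPKM in siCHD4 plus siDNMT1 and 3.13 FPKM in control siRNA plus siDNMT1. ACP5, an osteoclast and macrophage phosphatase, averaged 10.5 FPKM and 2.22 FPKM in these groups. None of the 10 stands in the 8 blood-cell lists.

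The genes next to the 9 moved in both directions. Within 100 kb (GRCh37) the table holds 53 other genes, of which 33 were tested. Of these, 11 rose and 8 fell in siCHD4 plus siDNMT1 against control siRNA plus siDNMT1, beside 24.8% and 24.6% of all tested genes. Next to HCLS1, GOLGB1 had a log2 change of 0.56 (limma adjusted p = 0.173) and POLQ fell by 0.43 (limma adjusted p = 0.00536). Next to CD74, TCOF1 fell by 0.36 (limma adjusted p = 0.0136) and RPS14 fell by 0.59 (limma adjusted p = 0.00377), while NDST1 rose by 0.85 (limma adjusted p = 0.000370). Next to VAV1, SH2D3A rose by 0.40 (limma adjusted p = 0.00231) and GPR108 by 0.50 (limma adjusted p = 0.000668). PTPRC and LAPTM5 had 0 tested neighbours in this range.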

How the data were processed

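RNA was sequenced from 18 SW48 libraries. Per the labels' protocols, either Trizol or an RNeasy kit served for extraction, with no record of which per library, and a stranded ribo-depleted kit was run on 1 µg of total RNA. The authors deposited FPKM values with a column for every library. Per the submitters' processing notes, TopHat2 2.0.9, Cuffdiff 2.1.1 and the hg19 build were used. Not given in the sources used here are the annotation, filters, scaling, strand setting and the handling of reads that match several places. No read counts were used, so no counting intervals are given.

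The table has 23599 entries, and 28 (0.119%) with a number in place of a gene name were left out. The scale of all tests is log2(FPKM + 1), on which low genes show less than their full change. The 12809 genes that reached 1 FPKM in 3 or more libraries were fitted with limma 3.58.1 in R 4.3.3, with 1 mean per group, a mean trend and 12 residual degrees of freedom. P-values are two-sided and adjusted by Benjamini-Hochberg over all genes tested. The script was tested on simulated data. Relative depth was read from the smallest step between values of 5412 low genes.

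The 9 genes, the 8 blood-cell lists and the paralogs were chosen with earlier results of these data known. Named are the 9 genes, CHD4, DNMT1, CIITA, the paralogs, and from each list up to 4 genes with the largest called change in siCHD4 plus siDNMT1 against control siRNA plus siDNMT1. Up to 2 called in control siRNA plus siDNMT1 against control siRNA, the highest gene of each list, the highest colon markers and the 10 most alike genes complete the rule. The defining markers, HLA-DMA and the neighbours were named in addition, after their values were seen, and 1 gene that the rule names is not reported here. Gene positions are from GENCODE v44lift37 (GRCh37, the same assembly as hg19), and promoters from RefSeq (GRCh38.p14).

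The alternatives were a pseudocount of 0.1, median ratio rescaling, quantile normalization, no filter, the replicate number as a block, a fit on the compared groups only, and leaving out each library. Over 45 pairs of libraries with the same number, residual correlations lay between -0.31 and 0.126, so the numbers were not taken to pair libraries.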

Additional observations from a re-analysis of the deposited data

Results flagged for a closer look

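The siCHD4 difference with siDNMT1 was larger on the log2(FPKM + 1) scale than that of siCHD4 alone, by the limma test of the difference itself, in 4 other blood-cell genes named here and 1 paralog. The excess was 1.85 for PTPN7 (SE 0.15, limma adjusted p = 2.76e-06), 1.35 for TNFRSF13C (SE 0.25, limma adjusted p = 0.00500) and 1.08 for IL2RG (SE 0.15, limma adjusted p = 0.000340). These 3 calls were kept in all 18 alternatives, with adjusted p-values from limma between 8.92e-07 and 0.0337. IL2RG passed the filter on low values only through its siCHD4 plus siDNMT1 libraries, and PTPN7 and RAC2 only through siCHD4 libraries, so the filter chose them for being high there. For RAC2 it was 1.23 (SE 0.29, limma adjusted p = 0.0241), kept in 9 of 18 alternatives with adjusted p from 0.00131 to 0.384. For VAV2, the paralog of VAV1, it was 0.479 (SE 0.12, limma adjusted p = 0.0281), kept in 9 of 18 with adjusted p from 0.00671 to 0.0866. TNFRSF13C averaged 3.53 FPKM in siCHD4 plus siDNMT1 and 1.23 FPKM in control siRNA plus siDNMT1, but 1.36 FPKM in siCHD4 and 1.94 FPKM in control siRNA. VAV2 averaged 21.9 FPKM in siCHD4 plus siDNMT1 and 19.2 FPKM in control siRNA plus siDNMT1, but 14.6 FPKM in siCHD4 and 18.2 FPKM in control siRNA.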

How the results depend on the processing

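Of 73 calls of named genes, 43 were kept in every alternative run, and the cause of the other changes was not tested. Under quantile normalization, CYBB and EPOR turned to -0.0720 and -0.0315 for siCHD4 with siDNMT1. In that comparison the call of CD52 was lost without siCHD4 plus siDNMT1 replicate 2 (log2 change 0.63) or control siRNA plus siDNMT1 replicate 0 (0.71) or 1 (0.59), and that of PLS3 without siCHD4 plus siDNMT1 replicate 0 (-0.29) or 2 (-0.33) or control siRNA plus siDNMT1 replicate 0 (-0.30) or 1 (-0.33). LYN lost it without siCHD4 plus siDNMT1 replicate 0, 1 or 2 (-0.31, -0.28 and -0.31) or control siRNA plus siDNMT1 replicate 1 or 2 (-0.28 and -0.26), and CORO7 without replicate 0 or 2 of the siCHD4 group (0.31 each) or replicate 0 or 1 of its control (0.32 and 0.25). CYBB lost it without replicate 0 or 1 of the siCHD4 group (0.27 and 0.19) or replicate 0 or 2 of its control (0.26 and 0.20), and EPOR without replicate 0 or 2 (0.27 and 0.31) or replicate 1 or 2 of its control (0.26 and 0.28). RAC2 with decitabine lost it without siCHD4 plus decitabine replicate 1 (0.89). The median log2 change of the 9 genes under a pseudocount of 0.1, which weighs low genes more, was 0.15 for siCHD4 alone, 1.68 with siDNMT1, 0.38 with decitabine, 0.77 for siDNMT1, 0.87 for decitabine and 0.93 for the difference between effects. Under quantile normalization it was 0.34 with siDNMT1, 0.11 with decitabine and 0.39 for the difference. Without 1 library it ranged from 0.01 to 0.08 for siCHD4 alone, 0.42 to 0.71 with siDNMT1, 0.17 to 0.26 with decitabine, 0.34 to 0.41 for siDNMT1, 0.24 to 0.39 for decitabine and 0.47 to 0.73 for the difference.

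All genes called, fitted on the compared groups only, numbered 514 (against 2471) for siCHD4 alone, 147 (586) with decitabine, 2774 (1452) for siDNMT1 and 929 (2335) for decitabine. The difference between effects gave 528, 317 with a pseudocount of 0.1 and 1093 without the filter. Without 1 library the counts were 1484 to 2580 for siCHD4 alone, 5022 to 5921 with siDNMT1, 295 to 641 with decitabine, 890 to 1091 for siDNMT1, 1313 to 2341 for decitabine and 320 to 2557 for the difference. The lowest counts for siCHD4 alone and for decitabine came without control siRNA replicate 1 (1484 and 1313) or replicate 0 (1532 and 1519). With decitabine they came without siCHD4 plus decitabine replicate 0 (295) or replicate 1 (301), and the 2557 came without siCHD4 replicate 2.

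Other blood-cell genes called higher without the filter numbered 14 (against 9) for siCHD4 alone, 63 (19) with siDNMT1, 8 (4) with decitabine, 11 (6) for decitabine and 15 (5) for the difference. On the compared groups only they were 5 for siCHD4 alone and 2 with decitabine, and with a pseudocount of 0.1 they were 3 for the difference. Without 1 library they were 7 to 11 for siCHD4 alone, 17 each time with siDNMT1, 3 to 5 with decitabine, 5 to 6 for siDNMT1, 6 each time for decitabine and 3 to 6 for the difference. The 3 came without replicate 0 of siCHD4 plus siDNMT1 or of siCHD4, or replicate 0 or 1 of control siRNA plus siDNMT1 or of control siRNA.

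With the replicate number as a block, the blood-cell genes called higher were 9, 19 and 4 for siCHD4 alone, with siDNMT1 and with decitabine, and 4 for the difference, where the call of the paralog VAV2 was also lost, as was that of CORO7 for siCHD4 with siDNMT1. All genes called were 2170, 6134 and 491. The libraries shared only a number.

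Levels under about 0.4 FPKM (LAPTM5, LCP1, SPI1) rest on few fragments, most of all in control siRNA plus decitabine replicate 0.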
